A study of Caenorhabditis elegans with 12 samples.

Results

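The net change of the *C. elegans* transcriptome over the first week of adulthood was measured by comparing *glp-4(bn2)* animals at day 7 with the same strain at day 1. The comparison rests on 4 of the 12 mRNA-seq samples of the series, 2 per age, each made from whole animals of which at least 80 were collected. All of them carried *glp-4(bn2)*, a temperature-sensitive allele whose carriers lack most germ cells when raised at restrictive temperature, and all received 50 µM FUDR, a blocker of DNA synthesis that prevents progeny, from the late L4 stage. They were fed *E. coli* and kept at 20 °C as adults. The labels give 15 °C for larval growth of every sample, whereas the methods of the study state a higher, restrictive temperature for *glp-4* larvae alone. By the methods, *glp-4* animals thus also differ from the other strains of the series in larval temperature. The 2 *glp-4(bn2)* samples of day 3, treated alike, shared the statistical model. As a reference level, 3 day 1 samples of *eri-1(mg366)* animals were used, which have a germline and served as wild-type. They also served to select germline-dependent genes, which were left out in an alternative setting. Another alternative fitted all 12 samples, including day 1 samples of *daf-2* mutants. The labels do not say whether samples of an age came from separate cultures, so that p-values measure only the spread between these samples. As these were bulk samples, fewer cells of a type and less RNA per cell cannot be told apart.

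Adult *C. elegans* build no new body wall: somatic cells have stopped dividing, the last cuticle was laid down at the final molt, and muscle, intestine, hypodermis and neurons must be kept up with the cells they have. The intestine is the main site of fat storage, yolk protein synthesis and contact with bacteria, while the hypodermis secretes the collagens of the cuticle. Because embryos and most germ cells are missing in *glp-4(bn2)* animals, the RNA of these samples comes mainly from such somatic tissues.

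The samples held between 4538353 counts (a day 7 sample) and 12836836 counts (a day 1 sample), so that 3 counts over both samples of an age correspond to 0.148 CPM (counts scaled to a library total of 1000000) at day 1 and 0.242 at day 7, counting error only. Of 13222 genes tested by the edgeR quasi-likelihood method (Benjamini-Hochberg adjusted p), 4041 (30.6%) were called higher at day 7 and 4143 (31.3%) lower at an adjusted p under 0.05. At least 4-fold changes made up 1415 of the higher and 1244 of the lower calls, and at least 16-fold changes 378 and 471. The samples of both ages did not overlap in 81.7% of the tested genes, so that separation of 2 from 2 samples was the common case. The balance of both directions depended on how samples were scaled to each other. Under the TMM scaling used throughout, 49.4% of calls were upward and the median gene had a log2 fold change of 0.02. Scaling by library totals alone raised the upward share to 71.6% and the median by 0.54, and with TPM on the log2(TPM + 1) scale they were 68.6% and 0.39. Medians of families are given on the TMM scale, where that of all genes was 0.02. Where the printed median of a gene list changed sign under another scaling this is stated, and the shift of all genes is part of that change. For lists given by counts alone no such statement is made, and the medians of some changed sign. Examples are vesicle release genes (-0.08 under TMM, 0.46 under library totals) and antioxidant enzyme genes (-0.15 and 0.39).

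Most net changes had a call at day 3, although both later ages were compared with the same day 1 samples. Among the genes higher at day 7, 1590 (39.3%) had risen between day 1 and day 3 with no further call, 699 (17.3%) rose in both steps and 678 (16.8%) only between day 3 and day 7. For 374 (9.26%) the net rise was what remained of a larger rise at day 3. Of the lower genes, 2053 (49.6%) had fallen by day 3 with no later call, 890 (21.5%) fell in both steps and 528 (12.7%) fell only later. The remaining net calls were mostly changes that passed the threshold in neither step alone, which were 667 of the higher and 374 of the lower genes.

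The 12 genes with the largest net rise encode proteins of different families. The lipase-related gene *lips-11* (chrII:1108841-1111001 of WBcel235) had 0 counts in both day 1 samples, 44.7 and 50.4 CPM at day 3 and 85.2 and 76.2 at day 7, or at least 547-fold more than 3 counts over both day 1 samples allow (edgeR quasi-likelihood adjusted p = 1.3e-11). The cathepsin B-like protease gene *cpr-2* (chrV:16532936-16534100) had 3.32 and 1.46 CPM at day 1 and 743 and 496 at day 7, for a log2 fold change of 8.05 (SE 0.35). For the patched-related gene *ptr-22* the values were 1.39 and 2.83 CPM against 265 and 269. In each of these genes both day 7 samples lay far above both day 1 samples. The other 9 risers of this size were *dct-8*, *clx-1*, the F-box gene *fbxa-155*, the caenacin peptide gene *cnc-6*, the chitinase gene *cht-1*, the lysozyme gene *ilys-3*, the caenopore gene *spp-9*, the cytochrome P450 gene *cyp-13A5* and the chemoreceptor-type gene *sri-39*.

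Collagen, hedgehog-related and lipocalin-related genes were among the 12 with the largest net fall. The gene *cld-1* (chrIV:12935011-12936271) had 102 and 64.5 CPM at day 1, 18.4 and 27.5 at day 3 and 0 counts at day 7, or at least 344-fold less (edgeR quasi-likelihood adjusted p = 2.5e-09). It thus vanished in the second interval, between day 3 and day 7. The lipocalin-related gene *lpr-4* (37.7 and 25.6 CPM at day 1) and the hedgehog-related gene *grl-5* (35.6 and 16.7 CPM) were at 0 counts at both later ages, and against the day 7 floor they were at least 131-fold and 108-fold lower. The collagen genes *col-79* and *col-127*, *dao-4* and the hedgehog-related *grd-10* were also at 0 in both day 7 samples. The intermediate filament gene *ifc-1*, the collagen genes *col-170*, *bli-2* and *col-147* and the lipocalin-related *lpr-3* completed the 12, with day 1 levels between 76.1 and 858 CPM and at most 1.06 CPM at day 7.

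**Figure D1:**
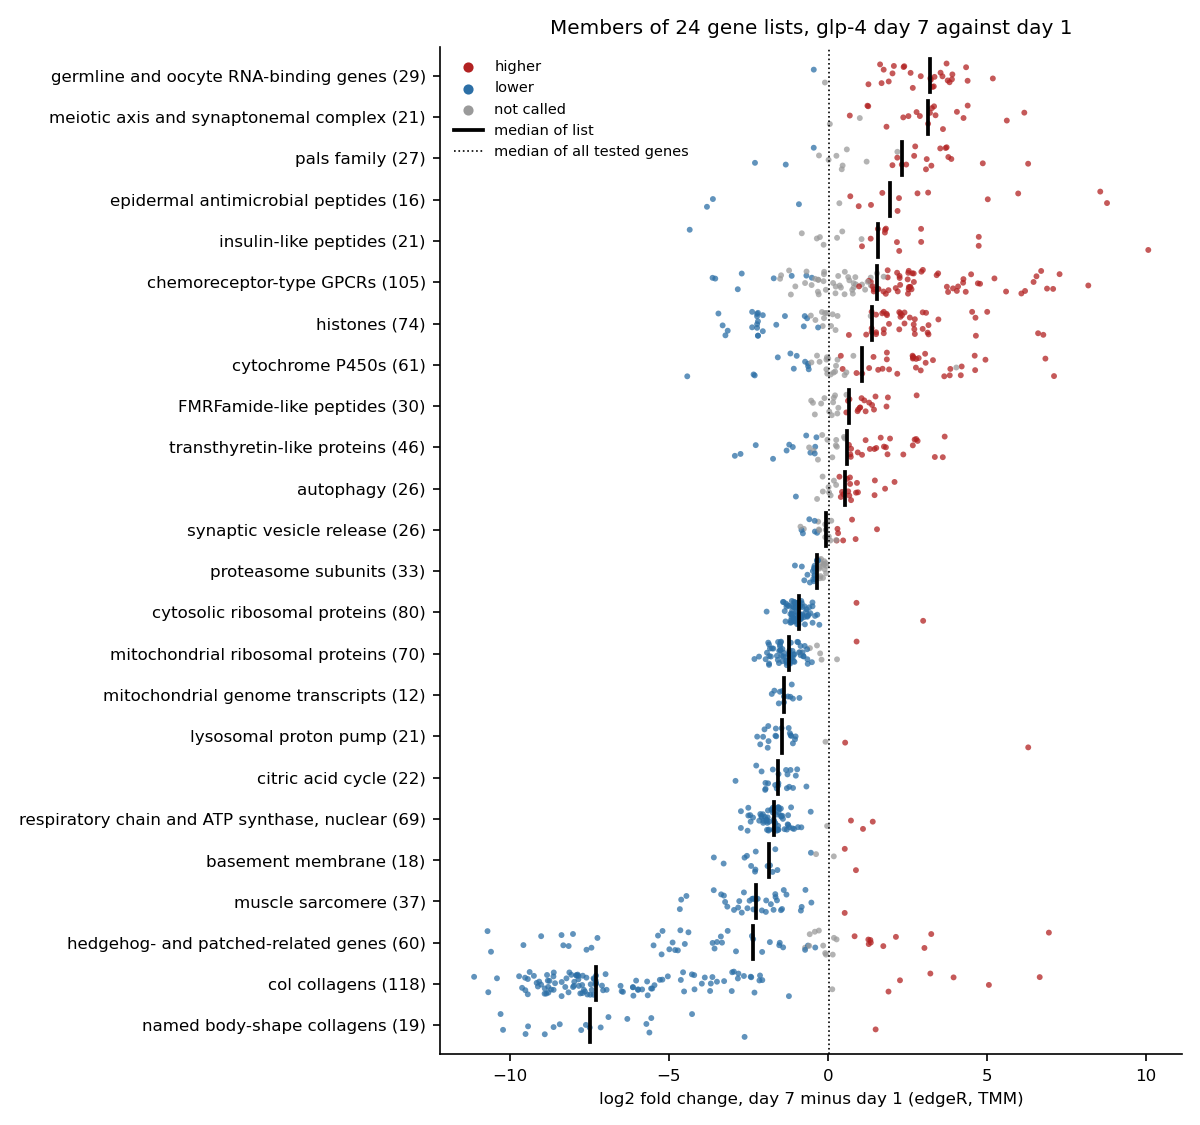
Log2 fold change of each tested member of 24 gene lists, day 7 minus day 1, with points coloured by call, a black bar for the median of each list and a dotted line for the median of all tested genes at 0.02. The *col* collagens (median -7.30) lie apart on the left, the sarcomere, respiratory chain and ribosomal protein lists on the lower side, and the germline RNA-binding genes (median 3.22) on the right.

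Cuticle collagens had the lowest median fold change of the 129 gene classes surveyed, a class being the letters before the hyphen of a gene name. Collagens are secreted by the hypodermis, are cross-linked into the cuticle and are made in waves at each molt. Of 156 *col* genes 118 were tested, and 111 of these were lower and 6 higher. Their median log2 fold change was -7.30, or -7.14 with genes at 0 counts set to their bound. A gene that passed the filter on low counts through its day 1 level had to be lower at day 7. These counts thus hold for the tested members only. The share of all TPM held by *col* genes was 8.73% and 10.3% in the day 1 samples, 2.53% and 2.36% at day 3 and 0.430% and 0.471% at day 7. The *eri-1* animals had a mean of 5.53% at day 1. The fall was thus not over at day 3, when the animals still held several times the day 7 share.

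The collagen gene *col-93* (chrIII:10984552-10985609) had 4084 and 5206 CPM at day 1, 35.1 and 43.8 at day 3, then 11.7 and 10.6 at day 7, for a log2 fold change of -8.70 (SE 0.20, edgeR quasi-likelihood adjusted p = 5.1e-13). Most of its fall came before day 3, as in the list as a whole, whose median at day 3 was -6.46. The gene *col-122* (chrIV:9563379-9564441) took another course, with 3289 and 4273 CPM at day 1, 3492 and 3119 at day 3, then 677 and 744 at day 7. It was not called at day 3 and fell only afterwards. The largest of the 6 rises was that of *col-183* (chrX:13466643-13467764), which had 0.214 and 0.456 CPM at day 1, 179 and 168 at day 3, then 29.7 and 42.4 at day 7, for a log2 fold change of 6.65 (SE 0.31).

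The collagens known from body-shape mutants behaved alike, with 18 of 19 lower and a median of -7.49 (-7.14 with genes at 0 set to their bound). Their summed share fell from 0.507% and 0.282% of TPM at day 1 to 0.00462% and 0.00464% at day 7. The gene *dpy-4* (chrIV:14985543-14986784) had 1239.8 and 681 CPM at day 1 and 2.59 and 2.27 at day 7. The spread between both day 1 samples, in which *dpy-4*, *dpy-13* (794 and 441 CPM) and *dpy-5* (559 and 348 CPM) were each higher in the same sample, was small beside the difference between ages. The exception was *dpy-17*, which rose from 3.64 and 2.55 to 8.12 and 9.24 CPM.

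Other genes of the apical matrix fell with the collagens, though less uniformly. Hedgehog- and patched-related genes are a family enlarged in nematodes that is expressed mostly in epithelia. Of 60 tested members 39 were lower and 10 higher (median -2.37), with the same limit of the filter as for the *col* genes. Among them *grd-14* had 209.6 and 103 CPM at day 1 and 1.04 and 0.757 at day 7. Cuticlins, the non-collagen proteins of the cuticle, were lower in 10 and higher in 2 of 19 (median -1.03). Astacin and neprilysin proteases, which cut secreted proteins and peptides, were split into 18 lower and 9 higher of 39, with *nep-17* at 3060.4 and 3167 CPM at day 1 against 295 and 254 at day 7, and *nas-11* rising from 79.7 and 88.0 to 423 and 513. Chitinases and chitinase-like genes went mostly upward, with 13 higher and 4 lower of 24 (median 0.93): *cht-3* rose from 49.2 and 88.6 to 553 and 588 CPM.

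The extracellular matrix beneath the cells fell as well. Basement membrane genes were lower in 14 and higher in 2 of 18 (median -1.86). The type IV collagen gene *let-2* (chrX:16380597-16389340) had 3503 and 4223 CPM at day 1, 2145 and 2042 at day 3, then 613 and 643 at day 7, for a log2 fold change of -2.62 (SE 0.12, edgeR quasi-likelihood adjusted p = 2.5e-10). The perlecan gene *unc-52*, which anchors body-wall muscle to the hypodermis, had 1552 and 1797 CPM at day 1 and 131 and 148 at day 7. *ost-1*, which encodes the worm's SPARC, had 804 and 861 against 242 and 229. The laminin gene *lam-3* rose (25.1 and 43.8 to 61.1 and 66.3 CPM). The log2 fold change of *let-2* was -0.88 in the first interval and -1.74 in the second.

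Muscle contractile genes fell almost without exception. Of 37 tested sarcomere genes 36 were lower and 1 higher, with a median of -2.27, and their summed share went from 2.64% and 2.94% of TPM at day 1 over 0.925% and 0.897% at day 3 to 0.643% and 0.681% at day 7. The main body-wall myosin heavy chain gene *unc-54* (chrI:14855901-14863482) had 9471 and 11438 CPM at day 1, 1734 and 1486 at day 3, then 449 and 508 at day 7. Its log2 fold change was -4.45 (SE 0.15, edgeR quasi-likelihood adjusted p = 9.6e-12). The level thus dropped in each interval, with no overlap between ages.

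Other thick- and thin-filament genes also fell, over different intervals. The paramyosin gene *unc-15* had 3599 and 4187 CPM at day 1 and 309 and 338 at day 7, the actin gene *act-1* 5775 and 6263 against 624 and 657, and the troponin I gene *tni-1* 162 and 159 against 6.05 and 6.66. In *act-1* the fall was complete at day 3 (760.3 and 749.6 CPM), while *unc-15* kept falling. The tropomodulin gene *tmd-2*, at 30.8 and 31.7 against 43.2 and 46.8 CPM, was the 1 higher member. The transcription factors that specify body-wall muscle were not called: *hlh-1* had 4.92 and 4.92 CPM at day 1 and 5.35 and 4.09 at day 7, and *unc-120* 19.7 and 23.8 against 19.9 and 16.7. The samples of both ages overlapped in both. In the pharynx, the feeding pump, 5 of 6 muscle genes were lower, among them the myosin gene *myo-2* (107 and 126 against 16.2 and 15.6 CPM), while the troponin gene *tni-4* was not called (26.5 and 33.5 against 33.9 and 36.8 CPM). *tni-4* was called higher without replicate 2 of day 1 (0.40) and under library totals (0.78).

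**Figure D2:**
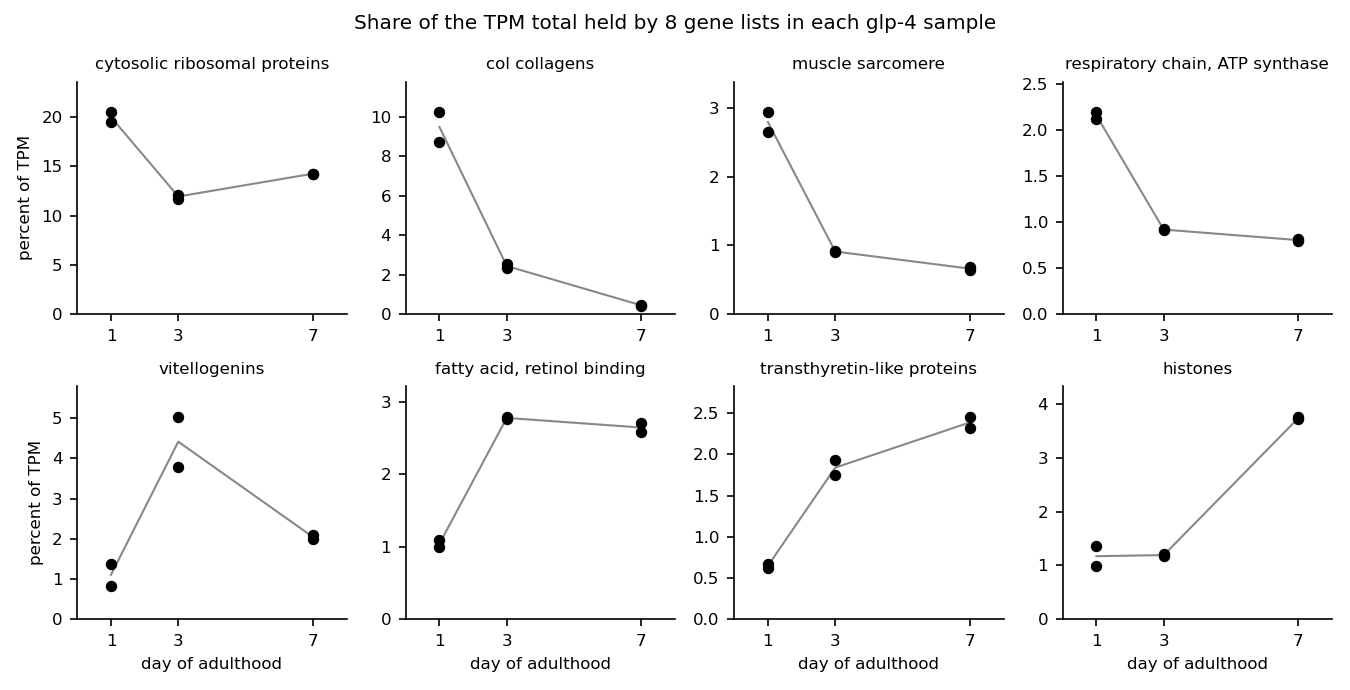
Summed TPM of 8 gene lists as percent of each sample's total, by day of adulthood, with a point for each *glp-4* sample and a line through the mean of each age. Ribosomal protein, collagen, sarcomere and respiratory chain shares fall by day 3, vitellogenins peak at day 3 (5.04% and 3.80%), and histones stay level until day 3 and reach 3.71% and 3.76% at day 7.

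Genes of mitochondrial energy production fell together. Of 69 tested nuclear genes for the respiratory chain and ATP synthase, 65 were lower and 3 higher (median -1.68), all 12 protein-coding genes of the mitochondrial genome were lower (median -1.38), and so were all 22 genes of the citric acid cycle (median -1.56). None of these medians changed sign under another scaling, where they lay between -0.84 and -1.69. The summed share of the nuclear respiratory genes was 2.12% and 2.20% of TPM at day 1, 0.917% and 0.923% at day 3, then 0.814% and 0.797% at day 7. That of the mitochondrial genome went from 1.90% and 2.00% to 1.12% and 1.18%.

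The ATP synthase subunit gene *atp-2* (chrIII:5228417-5230536) had 4038 and 4252 CPM at day 1, 1136 and 1058 at day 3, then 721 and 718 at day 7, for a log2 fold change of -2.53 (SE 0.11, edgeR quasi-likelihood adjusted p = 1.2e-10). *atp-1*, for its partner subunit, had nearly the same values, with 4223 and 4477 against 778 and 756 CPM. The mitochondrial malate dehydrogenase gene *mdh-2* had 939 and 849 CPM at day 1 and 119 and 119.5 at day 7, and citrate synthase, *cts-1*, 1526 and 1704 against 359 and 318. The cytosolic malate dehydrogenase gene *mdh-1* had a log2 fold change of -1.56. Among the 3 higher respiratory genes was *ucr-2.3*, a low-level gene (2.14 and 3.01 against 5.87 and 7.88 CPM). From the mitochondrial genome, the cytochrome oxidase subunit *COX3* had 3450.4 and 3063 CPM at day 1 and 1687 and 1809 at day 7.

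The decline reached glycolysis in weaker form. Of 18 tested genes 14 were lower and 2 higher (median -0.83), with the glyceraldehyde-3-phosphate dehydrogenase gene *gpd-2* at 897 and 859.7 CPM at day 1 against 271 and 273 at day 7. Its low-level paralog *gpd-4* was higher (1.39 and 0.729 against 2.42 and 3.48 CPM), and reads may be split between such paralogs. The call of *gpd-4* was lost without replicate 2 of day 1 (1.07) or of day 7 (1.19), and exons of *gpd-2* overlap those of *mai-1* on the same strand. In gluconeogenesis, the glyoxylate cycle and trehalose metabolism 8 of 14 genes were lower and 3 higher, with a median of -0.47 that changed sign, to 0.07 under library totals. The glycogen synthase gene *gsy-1* fell from 156 and 163 to 49.7 and 50.9 CPM, and the trehalase gene *tre-5* rose from 11.5 and 7.38 to 42.7 and 37.1. The mitochondrial unfolded protein response, the chaperone program of this organelle, had no higher and 7 lower of 11 genes, including *hsp-60* (495 and 539 against 107 and 116 CPM). The 70 mitochondrial ribosomal protein genes were lower in 63 and higher in 1 (median -1.21).

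The propionate shunt contained one of the largest metabolic changes. This pathway breaks down propionate in the mitochondria when vitamin B12, which the canonical route needs, is short. Of its 5 genes 4 were lower, with a median of -3.91. Its acyl-CoA dehydrogenase gene *acdh-1* had 764 and 736 CPM at day 1, 38.8 and 43.5 at day 3, then 3.97 and 3.18 at day 7. *hphd-1*, for the hydroxyacid transhydrogenase, had 346 and 353 against 17.8 and 18.6, *ech-6* 469.7 and 459 against 32.3 and 29.7, and *hach-1* 172 and 174 against 24.5 and 26.7. All 4 fell in both intervals, without overlap between any of the ages. The fifth gene, *alh-8*, was slightly higher (1961 and 2008 against 2431 and 2346 CPM), a call that was lost without either day 7 sample (log2 fold changes of 0.23 and 0.29) or without replicate 1 of day 1 (0.24). The nuclear hormone receptor gene *nhr-68*, a known activator of the shunt, fell from 109 and 105 to 11.6 and 11.7 CPM. In the canonical B12-dependent pathway 6 of 9 genes were lower and none higher (median -0.70), with methionine synthase, *metr-1*, at 208 and 209 against 109 and 92.5 CPM.

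Genes for methyl donor and phosphatidylcholine synthesis were lower in 11 and higher in 1 of 17 (median -0.95). The S-adenosylmethionine synthetase gene *sams-1* (chrX:11965962-11969893) had 1099 and 1149 CPM at day 1, 160.1 and 152 at day 3, then 94.1 and 84.4 at day 7, for a log2 fold change of -3.66 (SE 0.11, edgeR quasi-likelihood adjusted p = 4.8e-12). The gene *ahcy-1*, which recycles the spent methyl donor, had 1628 and 1742 CPM against 217 and 209.8. The methyltransferase gene *pmt-2*, which makes phosphocholine, had 1047 and 998 CPM at day 1 and still 537 and 515 at day 3, but 123 and 128 at day 7. Its partner *pmt-1* was not called (611 and 618 against 534 and 530.0). The partner enzymes of this short route thus took different courses.

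Lipid metabolism changed in both directions. Fatty acid activation and beta-oxidation genes were lower in 26 and higher in 12 of 58, and their median of -0.16 changed sign under all scalings but that of DESeq2. The carnitine palmitoyltransferase-like gene *cpt-3* (chrIII:2082819-2088314) had 4.17 and 2.83 CPM at day 1, 71.2 and 76.9 at day 3, then 350.3 and 345 at day 7, for a log2 fold change of 6.65 (SE 0.16, edgeR quasi-likelihood adjusted p = 8.3e-13). It rose in both intervals. Of 16 genes for fatty acid synthesis, desaturation and elongation 5 were higher and 9 lower. The delta-9 desaturase gene *fat-5* had 18.0 and 18.1 CPM at day 1, 556 and 501 at day 3, then 202 and 181 at day 7, and the delta-12 desaturase gene *fat-2* 846 and 837, 5772 and 5812, and 2047 and 2099. Both peaked at day 3 and remained above day 1. The elongase gene *elo-2* fell from 437 and 421 to 39.4 and 31.0 CPM. The lysosomal lipase gene *lipl-5* was higher at day 3 (1208 and 1167 CPM) than at day 1 (863 and 843) and lower at day 7 (177 and 176).

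Secreted lipid carriers held a larger share of the mRNA at day 7 than at day 1. Fatty acid and retinol-binding proteins, a nematode family, were higher in 4 of 8 genes and lower in none (median 0.72), and their summed share was 0.987% and 1.09% of TPM at day 1, 2.76% and 2.79% at day 3, then 2.58% and 2.70% at day 7. Most of it came from *far-2* (3712 and 4150.0 CPM against 7026 and 7468). The yolk proteins, or vitellogenins, are made in the intestine and taken up by oocytes. Their summed share was 0.836% and 1.37% at day 1, 5.04% and 3.80% at day 3, then 2.08% and 2.01% at day 7.

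The 6 vitellogenin genes did not move as a block. *vit-5* (chrX:3403471-3408603) had 5862 and 10770.3 CPM at day 1, 91951 and 70373 at day 3, then 28557 and 28823 at day 7, a net log2 fold change of 1.79 (SE 0.22, edgeR quasi-likelihood adjusted p = 8.1e-06). *vit-2* also remained higher, with 15922 and 23957 against 31134 and 29297, but its log2 fold change of 0.60 was not past the threshold without replicate 1 of day 7 (0.54). In contrast *vit-3* (chrX:3567355-3572549) had 2044 and 4339.8 CPM at day 1, 8825 and 6602 at day 3, then 503 and 472 at day 7, a net log2 fold change of -2.71 (SE 0.26). *vit-4* rose and fell in the same way, to 822 and 790.0 CPM from 1805 and 4205 at day 1. *vit-1* fell at both steps, to 417 and 412 from 3035 and 5488. *vit-6* peaked at day 3 (74351 and 59218) and at day 7 overlapped with day 1 (24229 and 23042 against 18920.0 and 28899). Without replicate 1 of day 1 it was called lower (-0.30), and without replicate 2 it was called higher (0.30). The day 1 samples differed from each other more in these genes than those of day 7, with the same sample higher in all 6. Several vitellogenin genes are near-identical in sequence, so that reads may be split between them, *vit-3* and *vit-4* in particular.

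**Figure D3:**
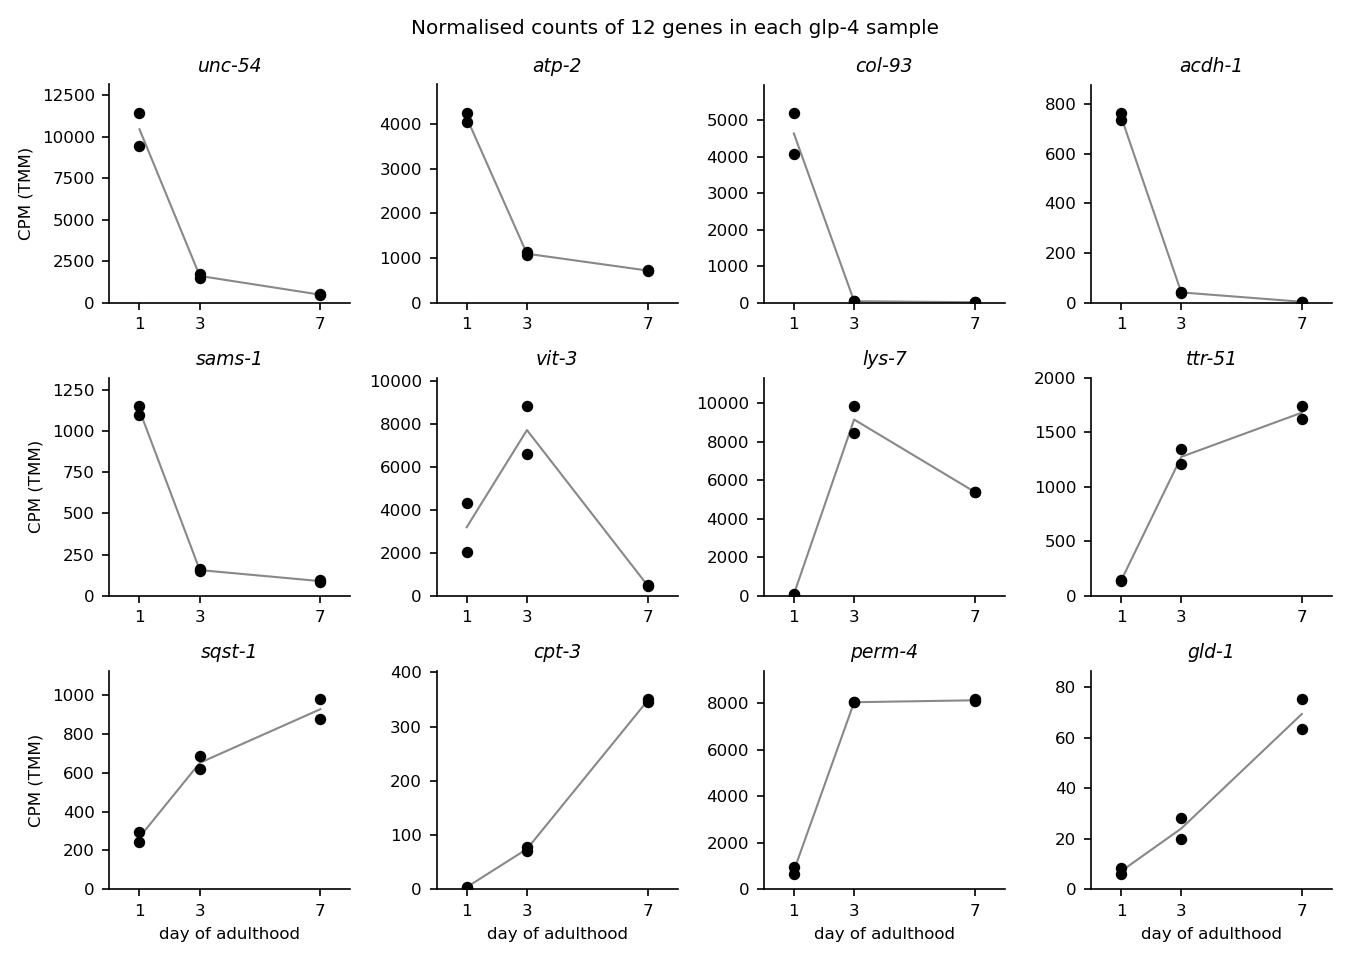
Normalised counts (CPM after TMM scaling, linear axes from 0) of 12 genes in each *glp-4* sample by day of adulthood, with a line through the mean of each age. *unc-54*, *atp-2*, *col-93*, *acdh-1* and *sams-1* fall steeply by day 3, *vit-3* and *lys-7* peak at day 3, and *ttr-51*, *sqst-1*, *cpt-3* and *gld-1* are highest at day 7, where *gld-1* has 63.6 and 75.1 CPM.

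Nearly all genes of the cytosolic ribosome fell by a small amount. Of 80 tested cytosolic ribosomal protein genes 78 were lower and 2 higher, with a median of -0.92, between -0.93 and -0.39 under the other scalings. As ribosomal proteins are among the most abundant mRNAs, this moved their share from 20.5% and 19.5% of TPM at day 1 to 11.7% and 12.2% at day 3 and 14.3% in both day 7 samples. *rpl-43* had 921 and 919 CPM at day 1, 505 and 531 at day 3, then 478 and 523 at day 7, for a log2 fold change of -0.88 (SE 0.10, edgeR quasi-likelihood adjusted p = 3.4e-06). The paralog *rpl-11.1* rose from 12.8 and 12.9 over 41.1 and 41.7 to 103 and 102 CPM. Translation factors were lower in 21 and higher in 5 of 37, but their median of -0.32 changed sign, to 0.22 under library totals and to 0.12 with log2(TPM + 1). The aminoacyl-tRNA synthetases, among which 14 of 32 were lower and 3 higher, changed sign in the same way.

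The genes of protein quality control took separate courses. Endoplasmic reticulum chaperones and stress genes were lower in 13 and higher in 2 of 19 (median -0.68), including the disulfide isomerase gene *pdi-2*, which also serves collagen synthesis (3492 and 3225 CPM against 866 and 879), and the BiP gene *hsp-3* (2607 and 2721 against 966 and 925). Of the 8 subunit genes of the cytosolic chaperonin, which folds actin and tubulin, 6 were lower and 1 higher, with a median of -0.51 that was 0.03 under library totals. The proteasome subunits were lower in 18 of 33 and higher in none, yet their median of -0.34 changed sign, to 0.19 under library totals and to 0.10 with log2(TPM + 1), and their summed share was 0.242% and 0.226% of TPM at day 1 and 0.254% and 0.252% at day 7. Relative to the median of all genes, that of the proteasome was -0.37 under both TMM and library totals and -0.31 with log2(TPM + 1).

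Cytosolic chaperones were divided. *hsp-90* rose from 1125 and 1097 to 2129.8 and 2171 CPM, and the constitutive HSP70 gene *hsp-1* fell from 3178 and 2902 to 1819 and 1813, a call that was lost under library totals (-0.21). Of 13 small heat-shock protein genes 6 were higher and 6 lower. *sip-1* (chrIII:10506106-10506801) had 3.10 and 2.83 CPM at day 1, 20.9 and 14.0 at day 3, then 37.8 and 45.0 at day 7, for a log2 fold change of 3.80 (SE 0.23). *hsp-43*, another small heat-shock protein gene, went from 108 and 153 to 387 and 489. The stress-inducible *hsp-16.41* was lower (49.4 and 39.8 against 14.7 and 16.4 CPM).

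Autophagy genes, which mark and enclose cell contents for breakdown, rose while the lysosome's acid pump fell. Of 26 tested autophagy genes 17 were higher and 1 lower, with a median of 0.54, and their summed share rose from 0.136% and 0.131% of TPM at day 1 over 0.265% and 0.261% at day 3 to 0.331% and 0.354% at day 7. The cargo receptor gene *sqst-1* (chrIV:12034282-12036891) had 293 and 243 CPM at day 1, 686 and 618 at day 3, then 879 and 979.6 at day 7, for a log2 fold change of 1.79 (SE 0.12, edgeR quasi-likelihood adjusted p = 1.1e-08). The genes of the autophagosome membrane proteins rose as well: *lgg-1* from 302 and 293 to 522 and 596, *lgg-2* from 133 and 124 to 357 and 355, and *atg-16.2* from 13.9 and 14.0 to 60.8 and 58.5. *epg-3* was the 1 lower gene (55.1 and 60.9 against 29.5 and 28.2 CPM), and was not past the threshold with log2(TPM + 1) (-0.39).

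The subunits of the V-ATPase, which acidifies lysosomes, were lower in 18 and higher in 2 of 21 (median -1.46), and their share fell from 0.840% and 0.893% of TPM to 0.404% and 0.409%. *vha-12* had 1534 and 1578 CPM at day 1 and 326 and 340.0 at day 7, while *vha-18* rose from 1 count in each day 1 sample to 8.29 and 9.54 CPM. Cathepsin-type proteases were lower in 15 and higher in 5 of 24 (median -0.65). The abundant aspartyl protease gene *asp-1* of the intestine (chrV:19049562-19050752) had 10795 and 9923 CPM at day 1, 2255 and 2019 at day 3, then 2314 and 2037 at day 7. Its fall was complete at day 3, whereas *asp-5* was not called at day 3 (3509 and 3062 against 3407 and 3177 CPM) and lower at day 7 (1696 and 1555).

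**Figure D4:**
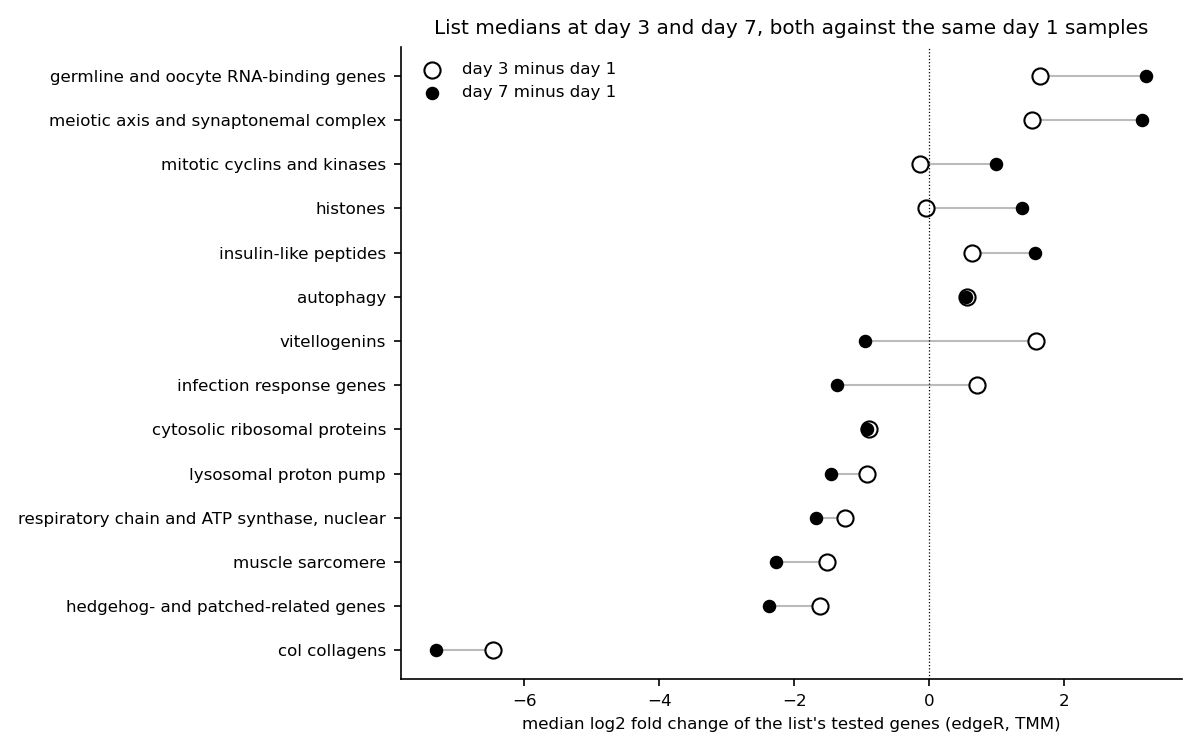
Median log2 fold change of 14 gene lists at day 3 (open circles) and day 7 (filled circles), both against the same day 1 samples, so that the 2 values of a list share their controls. Collagens and sarcomere genes lie far left at both ages, vitellogenins and infection response genes change sides between day 3 (1.59 and 0.71) and day 7 (-0.96 and -1.37), and histones move from -0.05 to 1.37.

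Genes of defence against microbes moved in both directions. Of 10 tested lysozyme genes 4 were higher and 5 lower, yet the summed share rose from 0.275% and 0.297% of TPM at day 1 to 1.50% and 1.62% at day 3 and 1.04% and 1.05% at day 7. Most of this was *lys-7* (chrV:3481432-3482600), with 67.8 and 88.8 CPM at day 1, 8447 and 9831 at day 3, then 5375 and 5399 at day 7, for a log2 fold change of 6.10 (SE 0.17, edgeR quasi-likelihood adjusted p = 1.8e-12). *ilys-3*, the invertebrate-type lysozyme of intestine and pharynx, had 0.321 and 0.547 CPM at day 1, 35.9 and 41.0 at day 3, then 138 and 111 at day 7. *ilys-5* fell (392 and 458 against 23.3 and 45.3), and *lys-8* had a peak at day 3 (1039 and 964 CPM) between 506 and 501 at day 1 and 184 and 200.2 at day 7.

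The pore-forming caenopores were equally mixed, with 9 higher and 10 lower of 23, and their median of -0.28 changed sign, to 0.25 under library totals and to 0.12 with log2(TPM + 1). *spp-9* rose from 0.321 and 0.365 to 68.6 and 73.0 CPM, after 155 and 164 at day 3, while the more abundant *spp-5* fell from 956 and 867 to 331 and 317. Among C-type lectin genes, many of which respond to infection, 28 of 108 were higher and 42 lower. Their shares of 25.9% and 38.9% stood against 30.6% and 31.3% of all tested genes. Here *clec-146* rose from 3.00 and 2.37 to 203 and 277 CPM, and the most abundant member, *clec-63*, fell from 4544 and 4093 to 1199 and 1075. The median of the lectins, -0.16, changed sign under every scaling except that of DESeq2.

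Antimicrobial peptides of the epidermis went up. Of 16 tested *cnc* and related *nlp* genes 12 were higher and 3 lower (median 1.95), and their share rose from 0.246% and 0.214% of TPM at day 1 to 0.648% and 0.753% at day 7. *nlp-34* had 33.4 and 26.7 CPM at day 1, 81.6 and 111 at day 3, then 176 and 244 at day 7. *cnc-1* had 0 counts at day 1 and 5.87 and 7.72 CPM at day 7, at least 46.1-fold more. *nlp-33* fell (154 and 118 against 7.43 and 11.8 CPM). The *irg* genes, named for their induction by infection, fell after day 3: 5 of 8 were lower and 2 higher, with a median of 0.71 at day 3 and of -1.37 at day 7. *irg-4* had 148 and 143 CPM at day 1, 257 and 267 at day 3, then 14.2 and 18.0 at day 7, and *irg-5* 3333 and 2638, 3592 and 4446, and 1179 and 1223.

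Families that are large in nematodes and linked to the response to intracellular pathogens had more higher than lower calls. Of 38 *pals* genes 27 passed the filter, 1 of them with 0 counts at day 1, and 16 were higher and 3 lower (median 2.32). Of 170 F-box A genes 113 passed, and 53 were higher and 17 lower (median 0.60). A gene that passed through its day 7 level had to be higher there, so that these counts hold for the tested members only. *fbxa-24* (chrII:3816526-3818238) had 46.3 and 49.3 CPM at day 1, 125 and 168 at day 3, then 365 and 345 at day 7. Many *pals* genes were close to the floor, such as *pals-12* with 0 counts at day 1 and day 3 and 1.21 CPM in both day 7 samples, at least 8.20-fold more. The transthyretin-like genes, which encode small secreted proteins of mostly unknown function, were higher in 23 and lower in 12 of 46 (median 0.59) and moved from 0.623% and 0.670% of TPM at day 1 to 2.32% and 2.46% at day 7. The nearby genes *ttr-51* (chrIV:13250655-13252311) and *ttr-45* (chrIV:13254225-13255538) rose together. *ttr-51* had 134 and 142 CPM at day 1, 1208 and 1344 at day 3, then 1623 and 1741 at day 7, for a log2 fold change of 3.61 (SE 0.12, edgeR quasi-likelihood adjusted p = 7.3e-12), and *ttr-45* went from 173 in both day 1 samples to 1747 and 1794 CPM. The phagocytosis-linked *ttr-14* fell (391 and 428 against 51.3 and 56.3 CPM).

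Detoxification genes split by enzyme class. Cytochrome P450 genes oxidise foreign and endogenous compounds. Of 74 such genes 61 were tested, with 33 higher and 11 lower (median 1.08, or 0.90 with genes at 0 set to their bound). A gene that passed the filter through its day 7 level had to be higher there, so that these counts hold for the tested members only. The share of the P450 genes rose from 0.0422% and 0.0401% of TPM to 0.140% and 0.151%. *cyp-14A5* (chrV:5421018-5423282) had 32.5 and 33.9 CPM at day 1, 359 and 345 at day 3, then 246 and 306 at day 7, for a log2 fold change of 3.05 (SE 0.13). Glutathione S-transferases went the other way, with 16 lower and 7 higher of 32 (median -0.71) and a share of 0.209% and 0.190% at day 1 and 0.0941% and 0.0974% at day 7. *gst-1* had 518 and 476 CPM at day 1 and 123 and 122 at day 7, and *gst-28* 67.4 and 63.4 against 1.73 and 1.51. The UDP-glucuronosyltransferases had 18 higher and 24 lower of 60, and a median of -0.15 that changed sign under every scaling but that of DESeq2.

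Antioxidant enzyme genes were called in both directions, and the members shown here were chosen with their values known. Of 10 genes 4 were higher and 4 lower. The mitochondrial superoxide dismutase gene *sod-2* fell from 99.3 and 87.9 to 21.8 and 21.1 CPM and the mitochondrial peroxiredoxin *prdx-3* from 127 and 110.1 to 26.4 and 30.4. The extracellular dismutase *sod-4* rose from 18.3 and 15.8 to 73.1 and 81.9 CPM, and the cytosolic catalase *ctl-1* from 92.7 and 85.3 to 203 and 199. Of the metal-binding metallothioneins, *mtl-1* rose from 14.3 and 11.0 to 303 and 272 CPM with a maximum at day 3 (449 and 551), and *mtl-2* fell from 45.2 and 38.6 to 16.4 and 13.5.

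Neuropeptide genes had more higher than lower calls, while genes for vesicle release were called in both directions. Of 12 pan-neuronal markers 5 were higher and none lower. Genes for vesicle release were higher in 7 and lower in 6 of 26, beside 30.6% and 31.3% of all tested genes. The synaptobrevin gene *snb-1* had 128 and 122 CPM at day 1, 325 and 314 at day 3, then 354 and 375 at day 7, for a log2 fold change of 1.54 (SE 0.10, edgeR quasi-likelihood adjusted p = 9.2e-09). FMRFamide-like peptide genes were higher in 17 and lower in none of 30 (median 0.65), and other neuropeptide-like genes higher in 28 and lower in 6 of 54 (median 0.67). *flp-6* rose from 5.89 and 6.20 to 38.7 and 44.8 CPM, whereas *nlp-24* fell from 205 and 238 to 1.21 and 2.88. For transmitter synthesis, *tbh-1*, which makes octopamine, rose from 93.7 and 160.4 to 529 and 539 CPM with a maximum of 1212 and 1237 at day 3, and *unc-25*, which makes GABA, fell from 20.0 and 27.3 to 8.81 and 10.5.

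Few genes of sensory signalling were abundant enough to be tested. Of 1309 chemoreceptor-type genes only 105 passed the filter on low counts, and 56 of these were higher and 8 lower (median 1.54). A gene that passed because of its day 7 level had to be higher there, so that these counts say little of the family. With log2(TPM + 1) and no filter, the median relative to that of all genes was -0.14. *srr-4* (chrV:5019224-5022363) had 3.75 and 5.65 CPM at day 1, 20.4 and 20.7 at day 3, then 48.2 and 56.6 at day 7. Ciliary genes were higher in 9 and lower in 2 of 29, where the 31.0% higher was near the 30.6% of all tested genes (median 0.44), with *osm-6* at 1.39 and 1.28 against 9.67 and 8.48 CPM.

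The insulin-like ligands that could be tested were mostly higher, and genes of their receptor pathway were called in both directions. Of 39 insulin-like peptide genes 21 were tested, and 13 of these were higher and 1 lower (median 1.57), with the same limit of the filter. *ins-7* (chrIV:9682011-9682845), an agonist of the receptor, had 8.13 and 10.5 CPM at day 1, 37.1 and 34.3 at day 3, then 27.8 and 37.0 at day 7, for a log2 fold change of 1.79 (SE 0.18, edgeR quasi-likelihood adjusted p = 1.0e-06). *ins-19* had 0 counts at day 1 and 18.5 and 15.1 CPM at day 7, at least 114-fold more. Of 15 genes of the receptor pathway 6 were higher and 4 lower. The receptor gene *daf-2* had 109.6 and 126 CPM at day 1 and 149.6 and 172 at day 7, for a log2 fold change of 0.45 (SE 0.11, edgeR quasi-likelihood adjusted p = 0.0034) that missed the threshold without replicate 2 of day 7 (0.34). The phosphatase gene *daf-18*, which opposes the pathway, rose by 0.94 on the log2 scale, and the kinase gene *sgk-1* fell by 0.93. The transcription factor gene *daf-16*, the main target of the pathway, was not called (297 and 309 against 272 and 288 CPM, log2 fold change -0.11), but was called higher under library totals (0.42) and with log2(TPM + 1) (0.43).

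Regulators of body pattern and tissue identity were called in part. Of 10 Hox genes and homeobox cofactors 6 were lower and 1 higher (median -0.71). *lin-39* (chrIII:7528641-7536632), the Hox gene of the mid-body, had 10.7 and 11.7 CPM at day 1, 13.1 and 12.1 at day 3, then 13.5 and 12.7 at day 7, for a log2 fold change of 0.22 (SE 0.19, edgeR quasi-likelihood adjusted p = 0.32), and the Hox gene *mab-5* was not called either. Under library totals both were called higher (0.76 and 0.75). The posterior Hox genes *egl-5* (10.4 and 5.11 against 2.94 and 3.94 CPM) and *nob-1* (36.1 and 27.3 against 12.4 and 15.0) fell, as did the cofactor *unc-62* (153 and 165 against 87.1 and 79.8), while the anterior *ceh-13* rose from 5.56 and 7.11 to 14.2 and 12.6. The call of *egl-5* was lost without replicate 1 of day 1 (-0.57) or of day 7 (-0.98) and under library totals (-0.62). Of 7 GATA factors 3 were lower and none higher, among them the intestinal *elt-2* (45.5 and 41.0 against 23.7 and 24.2 CPM), which was not past the threshold under library totals (-0.31). Nuclear hormone receptors were higher in 42 and lower in 38 of 183, which is 20.8% lower against 31.3% of all tested genes, and the share of higher calls was also below that of all tested genes (30.6%).

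Markers of somatic tissues moved by tissue. Intestinal markers were lower in 10 and higher in 1 of 12 (median -1.57): the peptide transporter gene *pept-1* had 360.2 and 421 CPM at day 1, 26.6 and 30.7 at day 3, then 43.0 and 42.4 at day 7, the terminal web filament gene *ifb-2* had 974 and 1032 against 128 and 118, and the microvillar actin gene *act-5* had 2396 and 2309.7 against 304 and 277. The transporter gene *pgp-1* rose from 52.0 and 38.9 to 168 and 142 CPM. Hypodermal and seam markers were lower in 6 of 7, body-wall muscle markers in 6 of 8 and pharyngeal muscle markers in 4 of 5, with none higher in any of the 3 lists. Markers of the pharyngeal gland were split, with *phat-4* falling from 63.1 and 63.4 to 0.173 and 0.606 CPM and *phat-8* rising from 12.2 and 11.9 to 34.4 and 37.6. Of the coelomocyte markers 2 of 3 were higher.

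Germline genes were higher at day 7 than at day 1, although the strain is used for its lack of germ cells. Of 12 germline markers 11 were higher and none lower (median 3.28), and none was at 0 in any sample. Their summed level was 159 and 162 TPM at day 1, 227 and 204 at day 3, then 397 and 386 at day 7, against 4477, 4130 and 4318 TPM in the *eri-1* animals. Most of the day 1 sum was *cgh-1* alone, with 142 TPM in both day 1 samples and 190 and 174 at day 7. The sum thus rose by a smaller factor than the markers that were called. The translational repressor gene *gld-1* (chrI:7695681-7698222) had 5.78 and 8.30 CPM at day 1, 28.1 and 19.9 at day 3, then 63.6 and 75.1 at day 7, for a log2 fold change of 3.29 (SE 0.20, edgeR quasi-likelihood adjusted p = 4.4e-09). In TPM, *gld-1* stood at 0.560% of the mean *eri-1* level at day 1 and at 7.54% at day 7. The P granule helicase gene *glh-1* went from 3.66% to 30.4% of that level, the meiotic axis gene *him-3* from 0.337% to 23.7% and the oocyte gene *puf-5* from 0.0473% to 0.934%. *cgh-1*, the most abundant of the markers, was not called (351 and 350.1 against 341 and 315 CPM), but was called higher under library totals (0.44).

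**Figure D5:**
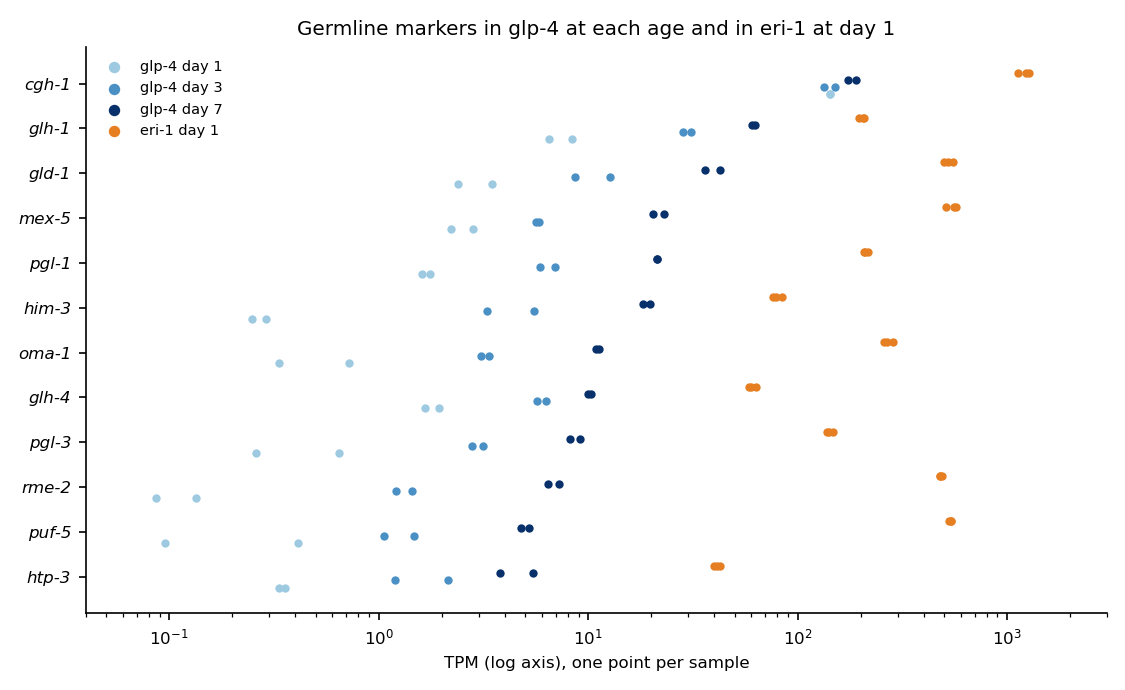
TPM (log axis) of 12 germline markers with a point for each sample, in *glp-4* animals at day 1, 3 and 7 and in *eri-1* animals at day 1. For 11 markers the *glp-4* samples are ordered by age without overlap, and all day 7 samples remain below all *eri-1* samples, with *glh-1* closest at 30.4% of the *eri-1* mean.

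The wider germline lists followed the markers. Germline and oocyte RNA-binding genes were higher in 27 and lower in 1 of 29 (median 3.22), and genes of the meiotic chromosome axis and synaptonemal complex higher in 19 and lower in none of 21 (median 3.15). The cohesin gene *rec-8* rose from 5.24 and 4.74 over 13.4 and 8.65 to 32.0 and 25.7 CPM. Eggshell and yolk receptor genes were higher in 11 and lower in 1 of 12 (median 3.41), with the receptor gene *rme-2* at 0.428 and 0.273 CPM at day 1 and 16.8 and 15.0 at day 7. The eggshell permeability barrier genes *perm-4* (chrIV:1121494-1125107) and *perm-2*, which lie side by side, were at far higher levels than the rest. *perm-4* had 643 and 928 CPM at day 1, 8041 and 8025 at day 3, then 8154 and 8078 at day 7, for a log2 fold change of 3.37 (SE 0.16, edgeR quasi-likelihood adjusted p = 3.1e-10). Unlike the germline markers, *perm-4* and *perm-2* (333 and 479, 3438 and 3668, and 2727 and 2744 CPM) were at their full level at day 3. Of 89 sperm protein genes 22 passed the filter, and 14 of these were higher and 2 lower. A gene that passed through its day 7 level had to be higher there, so that these counts say little of the list.

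Histone genes were called in both directions. Of 74 tested histone genes 40 were higher and 22 lower, with a median of -0.05 at day 3 and of 1.37 at day 7. Their share of TPM was 1.35% and 0.984% at day 1, 1.21% and 1.17% at day 3, then 3.71% and 3.76% at day 7. The *eri-1* animals had 0.368%, but they differ from *glp-4* animals in genotype as well as in the germline, and by the methods also in larval temperature. What set the shares of the strains apart was not tested. These shares cover only the histone RNA that the mRNA libraries captured, and how complete this capture was is not known from these data. The histone gene *his-48* (chrIV:11324745-11325116) had 73.1 and 57.8 CPM at day 1, 92.9 and 109 at day 3, then 320.2 and 335 at day 7, for a log2 fold change of 2.33 (SE 0.13). Among those lower was *his-17* (87.4 and 50.6 against 2.94 and 9.39 CPM). The counts of 33 of the 74 genes were identical to those of another gene, so that single copies cannot be told apart and the number of called genes is uncertain.

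Mitotic cyclins, kinases and their partners were higher in 21 and lower in 2 of 27 (median 0.99, after -0.13 at day 3), and DNA replication genes higher in 11 and lower in 4 of 26 (median 0.45, after -0.57 at day 3). The cyclin gene *cyb-3* rose from 15.1 and 9.57 to 21.8 and 26.7 CPM. The centrosome gene *spd-5* fell from 167 and 187 to 59.2 and 59.8 and the ribonucleotide reductase gene *rnr-1* from 86.1 and 58.9 over 12.1 and 9.20 to 25.9 and 23.8. Genes that depend on the germline were taken as those more than 4-fold lower in *glp-4* than in *eri-1* animals at day 1, at an adjusted p under 0.05. Without them, the median of the remaining mitotic genes relative to that of all genes was -1.42. As this rule uses the same day 1 samples, it left out genes because they were low at day 1. The value of -1.42 thus says little of the mitotic list. The 12 germline markers moved with these lists as given above. Their part in the change of histone, meiotic and mitotic genes was not tested.

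By position, the X chromosome differed in its balance of calls. Of its 1960 tested genes 421 (21.5%) were higher and 752 (38.4%) lower, with a median of -0.22. On the 5 autosomes between 30.7% and 34.8% were higher and between 28.6% and 31.1% lower, with medians between 0.03 and 0.08. With library totals alone the X chromosome had 785 (40.1%) higher and 498 (25.4%) lower genes, against 49.5% and 19.6% of all tested genes, so that its share of higher calls was smaller and that of lower calls larger than over all genes under both scalings.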

How the data were processed

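mRNA-seq of whole animals was deposited as estimated counts per gene, which the authors rounded to whole numbers and did not normalise, and as TPM (transcript abundance scaled to sum to 1000000 per sample), which the authors derived from the same quantification. The submitters' processing notes name kallisto, edgeR and DiffBind and the builds WBcel235 and ce11, and the methods state that the Cactus pipeline was used. Quantification of transcripts can split reads between near-identical genes, and use of strand is not given in the sources used here, so that reads of genes on opposite strands may not be separated. Of the 166 genes named in the report, 26 share exon sequence with another gene, 2 of them on the same strand (*gpd-2* and *pals-12*). Symbols were matched for 19957 of 19997 genes and positions for 19988 (Ensembl release 115).

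Counts were tested with edgeR 4.0.16 (R 4.3.3): genes passing filterByExpr (minimum count 10, minimum total 15), TMM factors, and a quasi-likelihood fit with a mean per age over the 6 *glp-4* samples, with p-values adjusted by Benjamini-Hochberg across the 13222 genes tested and a threshold of 0.05. On simulated counts for 12609 genes, 65.3% of 2-fold and 93.9% of 4-fold changes were recovered, with 13 false calls. Only 98 of these genes were changed 2-fold and 99 4-fold, in both directions, whereas 61.9% of tested genes were called in the data. The simulated figures thus need not hold for a comparison with so many changes. Families were described by 87 gene lists (11 of them tissue markers) and 129 gene classes of at least 10 tested genes, with counts and medians and no set test. Both the comparison and the lists were chosen with earlier results of these data known. The genes named were the 12 that rose and the 12 that fell most (at least 20 CPM at the higher age, no overlap) and, in each list, the 3 most abundant members, the called member with the largest change in each direction, and members of lists of up to 15 genes, of which those shown were chosen with their values known and the others are counted only. Floors are 3 counts over both samples of an age and cover counting error only.

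The alternatives tried were other scalings, DESeq2 1.42.0, limma 3.58.1 on log2(TPM + 1) and log2(TPM + 0.1), filters, sample sets, thinning of libraries, stricter thresholds, a replicate block and leaving out each sample. A description of promoter motifs was planned and not run. Tables and figures were made with Python 3.11.15, pandas 2.3.3 and matplotlib 3.10.9.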

Additional observations from a re-analysis of the deposited data

How the results depend on the processing

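The numbers of higher (4041) and lower (4143) genes depended most on the scaling. With library totals alone they were 6550 and 2593 (71.6% upward), with limma on log2(TPM + 1) 5833 and 2674 (68.6%), with log2(TPM + 0.1) 5746 and 2620 (68.7%), and with log2(TPM + 1) and no filter 6271 and 2745 (69.6%). A minimum 2-fold change (1 on the log2 scale) left 2660 and 2665. On the X chromosome the 421 higher and 752 lower genes became 785 and 498 with library totals, 665 and 486 with log2(TPM + 1), 652 and 473 with log2(TPM + 0.1), and 687 and 499 without a filter on the TPM, and 274 were higher at the stricter fold. Upper-quartile factors gave 58.7% upward calls, and DESeq2 called 3170 genes higher and 3519 lower.

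Fits that lacked 1 of the 6 samples called 3189 to 3924 genes higher and 3582 to 4143 lower, the upward share was 47.1% to 49.0%, the X chromosome had 342 to 408 higher and 653 to 754 lower genes, and 57 to 59 of the 87 list medians and 72 to 78 of the 129 class medians lay below that of all genes. Where an age was left with 1 sample, that sample was assumed to vary like those of the other ages. With the replicate number as a block, 4050 genes were higher and 4160 lower. Samples with the same number did not deviate together (correlations of -0.014, 0.028 and -0.008 between ages). With 2 samples per age, this cannot show whether they shared a culture or a harvest.

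Over 23 settings, 2 list medians relative to all genes changed sign among the lists that moved mostly in 1 direction: chemoreceptor-type genes (-0.14 with log2(TPM + 1) and no filter) and mitotic genes (-1.42 without germline-dependent genes). The germline-dependent genes were chosen with the same day 1 samples, so that the value of -1.42 says little of the mitotic list. None of the 157 called genes among the 166 named changed sign under any of them, while *vit-6*, which was not called, was lower without one day 1 sample (-0.30) and higher without the other (0.30). Low counts at day 7, where 3 counts over both samples correspond to 0.242 CPM, limit statements on genes near that level.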

Other observations

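A survey of the 129 gene classes showed further families with calls mostly in 1 direction, chosen here after their values were seen. Among the lower classes, *abu* had 10 of 14 genes tested, and 9 of these were lower (median -5.35). Of 29 *fipr* genes 18 were tested, with 12 lower and 4 higher (median -2.76). In both classes, a gene that passed the filter through its day 1 level had to be lower at day 7, so that the counts hold for the tested genes only. Of 15 tested *mec* genes, named for touch sensation, 9 were lower and none higher (median -0.72), and of 19 *sec* genes, most of which serve transport through the secretory pathway, 11 were lower and none higher (median -0.64). The share of TPM held by *sec* genes fell from a mean of 0.314% to 0.132%.

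Among the higher classes were the nematode-specific *nspc* peptides, with 16 of 18 higher and none lower (median 2.34) and a mean share that rose from 0.0411% of TPM at day 1 to 0.279% at day 7. Of 24 *scl* genes, which encode secreted SCP-like proteins, 10 were tested, and 7 of these were higher and 2 lower (median 3.10). Of the adaptor classes of protein turnover, *bath* had 23 of 36 genes tested, with 18 higher and 2 lower (median 1.70). Skp1-related *skr* had 12 of 20 genes tested, with 9 higher and none lower (median 0.64). The receptor-type guanylate cyclase class *gcy*, expressed mostly in sensory neurons, had 20 of 31 genes tested, with 11 higher and none lower (median 1.36). In *scl*, *bath*, *skr* and *gcy*, a gene that passed the filter through its day 7 level had to be higher there. Their counts thus say little of the whole classes. The *vps* genes for vesicle sorting were higher in 12 and lower in 3 of 31 (median 0.26). That median is less than the shift of 0.54 in the median of all genes under library totals. No test was run on these classes.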
